A study of Mus musculus with 12 samples.

Results

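The 7 genes described here were Hcrtr1, Afp, AU015836, Klk1, 6430710C18Rik, Stim1 and Myocd, out of 18193 genes with a probe set of their own. They were chosen by their measured intensity on these arrays, as genes with a large increase over a day of gonad formation and no settled role in the early gonad. All 17 probe sets that name 1 of these genes alone were used, out of 45037 that were tested. The samples were green cells collected by fluorescence-activated sorting from the gonads of mouse embryos that carried pSF1-eGFP, a green fluorescent protein under the promoter of Sf1 (Nr5a1). There were 4 groups of 3 arrays: females at 10.5 days post coitum (dpc), males at 10.5 dpc, females at 11.5 dpc and males at 11.5 dpc. All groups shared the reporter, the sort and the amplification of the RNA, and no group was treated. The sort defines the cells by activity of this reporter, and the Sf1 promoter is also known to be active in the adrenal primordium, so the sorted cells need not all be gonadal. The strain and the number of embryos behind a sample are not given in the sources used here, and it is not stated whether replicate samples had separate embryos behind them. The p-values therefore measure only the spread between these samples, which may be technical.

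At the earlier age male and female genital ridges look alike, and at the later age the male ridge begins to form a testis. Hcrtr1 encodes a G protein-coupled receptor for orexins, peptides known from the control of wakefulness and feeding. Afp encodes alpha-fetoprotein, a serum protein of the albumin family that the yolk sac and fetal liver make in large amounts. Klk1 encodes tissue kallikrein, a serine protease that releases kinins, small peptides that act on vessels and smooth muscle. Stim1 encodes the calcium sensor of the endoplasmic reticulum, which opens the Orai1 channel of the plasma membrane when the stores are empty. Myocd encodes myocardin, a coactivator of the serum response factor (SRF) that drives genes of smooth and cardiac muscle. RefSeq classes AU015836 and 6430710C18Rik as long noncoding RNAs, and no function is given for either here.

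The labels were checked on markers of the sorted cells. Nr5a1, the gene behind the reporter, was present in every group: its mean intensity at 10.5 dpc was 378 ± 4.17 (SD, n = 3) for females and 625 ± 22.7 for males, and at 11.5 dpc 549 ± 39.4 and 748 ± 24.6. The early gonad factor Wt1 lay between 1237 and 1987 in the 4 groups. Of 20 gonadal somatic and supporting cell markers 12 rose and 5 fell in females, and 10 rose and 6 fell in males. Their summed level at 10.5 dpc ranged from 15281 to 15639 in females and from 17956 to 18223 in males. At 11.5 dpc it ranged from 19723 to 20339 and from 18072 to 18283. Emx2 fell from 3691 to 1169 in females and from 4915 to 613 in males, and Lhx9 from 6668 to 5379 and from 7602 to 2769. Among those that rose, Wnt4 went from 616 to 5033 in females and from 1036 to 2672 in males. Runx1 went from 34.2 to 734 and from 28.2 to 430. Fgf9 rose from 120 to 192 in females and from 124 to 1645 in males, and Cst9 from 37.2 to 93.8 and from 34.6 to 2623. Sry was dim, with means from 6.46 to 7.67. Array medians lay between 41.21 and 43.88, and across probe sets the correlation of arrays within a group was 0.9981 to 0.9988. The number of arrays limits the precision. Other measures differed between the same groups, and their part in the results below was not tested. The 3′ over 5′ actin signal, a measure of RNA quality and amplification, was 5.32 for females and 9.9 for males at 10.5 dpc, then 9.97 and 7.59 at 11.5 dpc. Of 9 measured neural and neural crest markers, 7 fell over the day in each sex, and their summed level ranged from 8136 to 8364 in females and from 2152 to 2261 in males at 10.5 dpc, against 370 to 423 and 415 to 447 at 11.5 dpc. Of 9 erythroid markers, 5 rose and none fell in females, and 5 rose and 1 fell in males, with summed levels of 6296 to 6771 and 1221 to 1346 at 10.5 dpc and of 15354 to 15665 and 6272 to 6646 at 11.5 dpc. Of 12 endothelial markers none rose and 5 fell in females, while 7 rose and none fell in males, with summed levels of 3572 to 3594 and 1252 to 1389 at 10.5 dpc and of 2220 to 2341 and 2359 to 2447 at 11.5 dpc. Of 12 germ cell markers 3 rose and 7 fell in females and 5 rose and 3 fell in males, with summed levels of 5887 to 6129 and 1298 to 1325 at 10.5 dpc and of 2844 to 2924 and 1919 to 1981 at 11.5 dpc. Of 12 markers of mesonephric epithelium 2 rose and 4 fell in females and 3 rose and 3 fell in males, with summed levels of 5589 to 5917 and 4646 to 4846 at 10.5 dpc and of 7598 to 7986 and 5996 to 6523 at 11.5 dpc. The brightest of them were Krt8, from 2091 to 4488 in females and from 1889 to 3429 in males, and Krt18. Epcam fell from 503 to 136 and from 121 to 90.2. Cdh1 fell from 313 to 135 in females and rose from 72.7 to 121 in males. Of 13 adrenal cortex markers 6 rose and 2 fell in each sex, with summed levels of 8725 to 8985 and 6908 to 7058 at 10.5 dpc and of 11595 to 12087 and 8253 to 8633 at 11.5 dpc. Among these Mc2r, the corticotropin receptor gene, fell from 414 to 66.5 in females and from 266 to 74.2 in males, and Cyp11a1, an enzyme of steroid synthesis also made in the gonad, rose from 107 to 890 and from 92.3 to 334. Most of the adrenal sum came from Fdx1, with means of 6773 and 8057 in females and 4462 and 4503 in males. Of 12 macrophage markers 1 rose and 6 fell in females and 1 rose and 3 fell in males, with summed levels of 492 to 703 over all 12 arrays. For all these marker counts, the reference is the share of all genes called over the day. It was 22.4% higher and 27.0% lower in females, and 23.3% and 29.7% in males.

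Promoter sequences show how far the 7 genes share a binding motif of NR5A1, the product of the sorting marker's gene. RefSeq promoters of assembly GRCm38.p6 were at hand for 4 of the 7 genes, with 6 start sites. The 250 bases before each start were searched on both strands for CAAGGNCA, a motif of NR5A1 and NR5A2. It was found before the starts of Afp and Klk1, and 5.53% of 32851 mouse start sites hold it in such a window. It was not found in these windows before the 3 starts of Hcrtr1 or the start of Stim1. The sequences of Afp (chr5:90490464-90490713, plus strand), Klk1 (chr7:44225110-44225359, plus strand) and, for contrast, the first start of Hcrtr1 (chr4:130139163-130139412, minus strand) are shown 5′ to 3′. Capitals mark the motif, which reads on the reverse strand in both.
Afp: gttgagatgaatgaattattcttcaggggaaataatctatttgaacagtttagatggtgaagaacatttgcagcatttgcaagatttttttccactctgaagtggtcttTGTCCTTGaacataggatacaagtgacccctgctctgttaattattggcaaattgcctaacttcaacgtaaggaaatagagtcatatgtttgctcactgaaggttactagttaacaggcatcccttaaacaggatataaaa
Klk1: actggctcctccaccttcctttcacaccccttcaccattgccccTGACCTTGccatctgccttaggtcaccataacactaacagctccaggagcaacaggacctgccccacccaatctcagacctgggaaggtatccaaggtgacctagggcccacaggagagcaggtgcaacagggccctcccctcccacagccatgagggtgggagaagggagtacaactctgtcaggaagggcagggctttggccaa
Hcrtr1: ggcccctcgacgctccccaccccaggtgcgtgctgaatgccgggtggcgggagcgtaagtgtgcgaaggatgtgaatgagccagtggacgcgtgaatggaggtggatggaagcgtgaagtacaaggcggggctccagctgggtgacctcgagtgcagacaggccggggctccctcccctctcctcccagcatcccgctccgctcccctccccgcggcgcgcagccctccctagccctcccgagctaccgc
In Afp the match, TGTCCTTG, began 141 bases before the start, and the letters TATAAA, which 12.4% of the windows hold, began 7 bases before it. In Klk1 the match, TGACCTTG, began 206 bases before the start and is also the reverse complement of CAAGGTCA, which 1.33% of the windows hold. The core motif of SOX factors, AACAAT (9.42% of the windows), had no match in the 6 windows, and the motif of GATA factors, AGATAA (9.99% of the windows), had a match in 1 of them, before start 3 of Hcrtr1. That window (chr4:130137291-130137540, minus strand) lies downstream of the first start, so it can hold transcribed sequence of the gene itself. The AU015836, 6430710C18Rik and Myocd promoters were not analysed here.

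Values are array intensities on a linear scale, and changes are differences of log2(intensity + 1) with their standard error (SE, n = 3 arrays per group). The levels over the 4 groups chose these genes, so the changes over the day and the sex differences at both ages are given as descriptions with no test. Over the day the change had a median of 3.42 over the 7 genes in females and of 3.94 in males, against -0.01 and -0.05 over all genes. It ranged from 0.22 to 6.14 in females and from 1.17 to 8.39 in males. Of the 7 genes, 5 were at least 2-fold higher at 11.5 than at 10.5 dpc in females and 7 in males. For reference, 5.84% of all genes were called at least 2-fold higher in females and 5.86% in males, and 7.61% and 5.28% at least 2-fold lower. All 7 genes had a mean intensity of at least 50 in at least 1 group. A higher level in these bulk samples can mean more cells that express a gene or more RNA per cell, and the arrays cannot tell these apart.

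**Figure D1:**
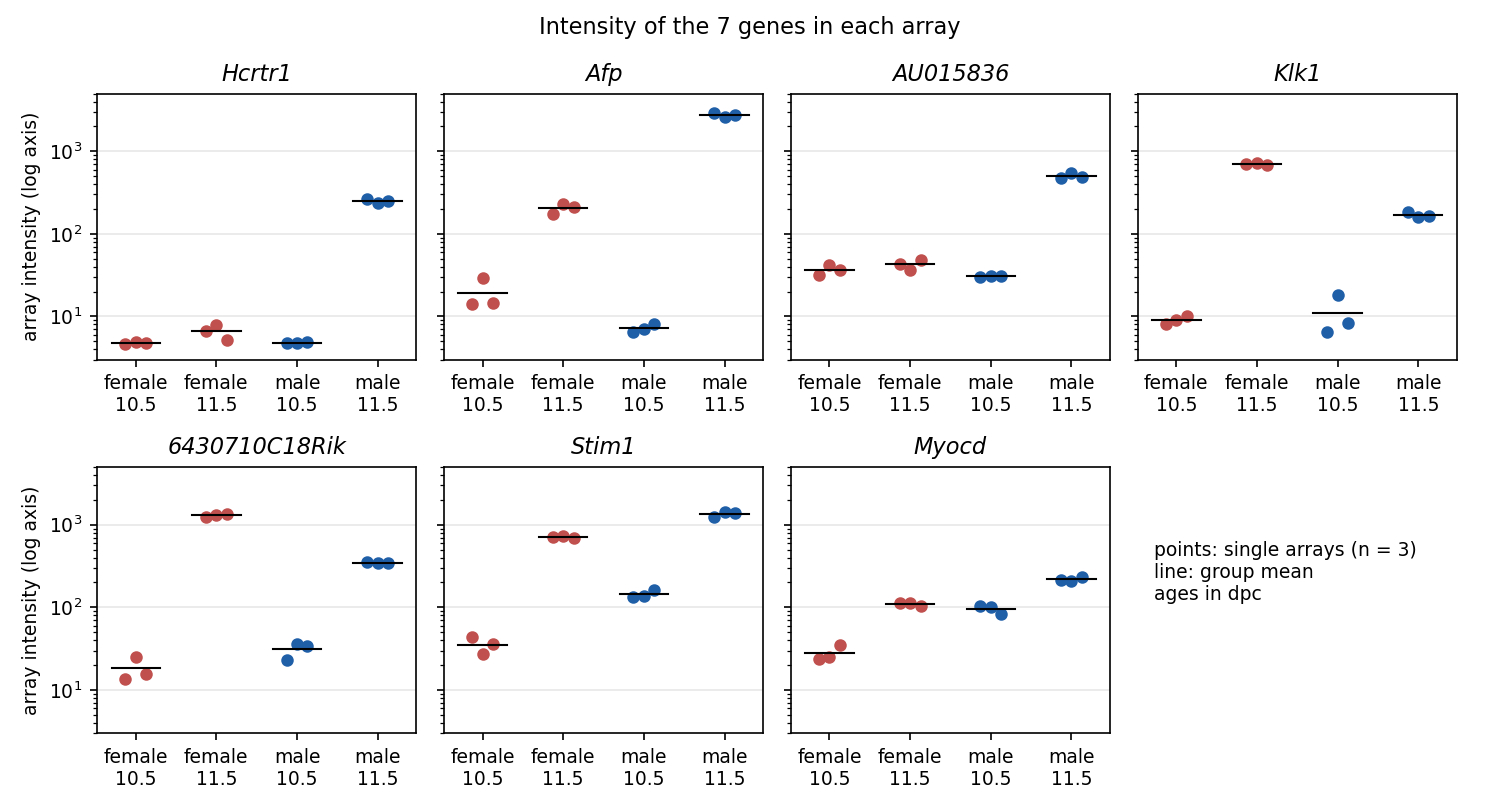
Array intensity (log axis) of the representative probe set of each of the 7 genes, with 1 point per array (n = 3 per group) and a line at the group mean. Hcrtr1 and AU015836 are high in the males at 11.5 dpc alone, Klk1 and 6430710C18Rik are highest in the females at 11.5 dpc, and Stim1 and Myocd are already higher in males than in females at 10.5 dpc.

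Hcrtr1, the orexin receptor gene, was high in a single group, the males at 11.5 dpc. Its probe set read 4.68, 4.9 and 4.79 in females and 4.74, 4.81 and 4.87 in males at 10.5 dpc. At 11.5 dpc it read 6.75, 7.88 and 5.22 in females and 264, 239 and 252 in males. The 3 male arrays at 11.5 dpc stood apart from the other 9, which all lay below 8. The male mean lay at percentile 6.2 of all probe sets at 10.5 dpc and at percentile 72.3 at 11.5 dpc. The change over the day was 5.44 ± 0.1 in males, a 52.3-fold higher level, and 0.38 ± 0.1 in females. With a pseudocount of 16 it was 3.68 in males and 0.12 in females. The female mean at 11.5 dpc, 6.62 ± 1.33 (SD), was 2.63% of the male mean of 252 ± 12.3. Among all genes the male increase was the 10th largest and the female increase ranked 3038.

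AU015836, a noncoding RNA next to Zfx and Eif2s3x on the X chromosome, showed the same outline from a higher baseline. It read 31.6, 42.2 and 36.3 in females and 30.4, 30.7 and 30.8 in males at 10.5 dpc. A day later it read 43.3, 37 and 47.9 in females and 472, 548 and 482 in males. The female arrays of the 2 ages overlapped, and the males at 11.5 dpc lay far above every other array. The change was 3.98 ± 0.11 in males, or 16.3-fold, and 0.22 ± 0.11 in females. The female mean at 11.5 dpc was 8.53% of the male mean.

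Afp, the fetal serum protein gene, had the largest male increase of all genes on the log2(intensity + 1) scale and was also higher in females at the later age. At 10.5 dpc its representative probe set read 14.1, 29.4 and 14.5 in females and 6.57, 7.01 and 8.1 in males. At 11.5 dpc it read 174, 230 and 214 in females and 2896, 2629 and 2721 in males. No array of a group overlapped another group, and the order of the groups was males at 10.5 dpc, females at 10.5 dpc, females at 11.5 dpc and males at 11.5 dpc. The change was 8.39 ± 0.23 in males, or 380-fold, and 3.42 ± 0.23 in females, or 10.7-fold. The male mean lay at percentile 19.1 of all probe sets at 10.5 dpc and at percentile 94.8 at 11.5 dpc, so the size of the male fold rests on a dim baseline. With a pseudocount of 16 the male change was 6.89. At 10.5 dpc the male minus female difference was -1.23 ± 0.23, with all 3 male arrays below all 3 female arrays. It was -0.58 with a pseudocount of 16 and -0.37 with the mean over the probe sets of the gene.

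Among Y-linked genes, which females lack, Eif2s3y gave signal well above the lowest intensities in the female arrays at 11.5 dpc. Eif2s3y, a translation factor subunit, read 60.4, 68.4 and 65.2 in females at 11.5 dpc, 4.03% of the male mean of 1606. In females at 10.5 dpc it had a mean of 9.8, and the increase of 2.63 ± 0.14 passed (adjusted p = 6.1e-08). The demethylase gene Kdm5d stood at 3.18% and Uty (1426598_at) at 2.3% of the male mean at 11.5 dpc. Their female means at 10.5 and 11.5 dpc were low, 6.38 and 7.07 for Kdm5d and 7.01 and 8.69 for Uty. The 10th percentile of probe sets lay between 5.19 and 5.52 over the arrays. Further probe sets of these Y-linked genes are not given here. Over the day Kdm5d did not pass in females (0.12 ± 0.12, adjusted p = 0.54) and Uty changed by 0.27 ± 0.073 (adjusted p = 0.013). In females at 11.5 dpc Hcrtr1 lay at 2.63%, Afp at 7.5% and AU015836 at 8.53% of the male mean. Each share includes the background of its own probe set, which was not subtracted, so shares are not compared between genes. The part of the Y-linked signal in the female levels of Hcrtr1, Afp and AU015836 was not tested.

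**Figure D2:**
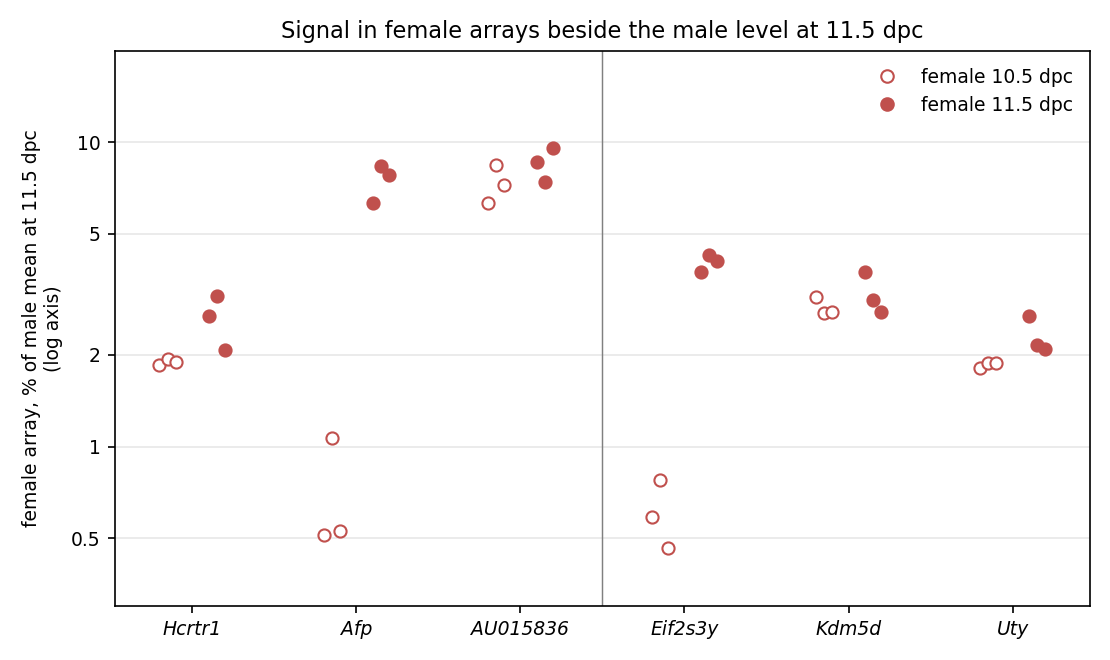
Intensity of each female array as a percentage of the male mean at 11.5 dpc (log axis) for Hcrtr1, Afp and AU015836 on the left and the Y-linked Eif2s3y, Kdm5d and Uty on the right, with open points for 10.5 dpc and filled points for 11.5 dpc. At 11.5 dpc Afp averages 7.5% and Eif2s3y 4.03%, and both are higher than at 10.5 dpc, while AU015836 in females lies near the same share at both ages.

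Klk1, the tissue kallikrein gene, was high in both sexes at 11.5 dpc and higher in females. It read 8.06, 8.99 and 10.1 in females and 6.51, 18.1 and 8.42 in males at 10.5 dpc. The readings at 11.5 dpc were 704, 713 and 691 in females and 183, 160 and 165 in males. The groups of the 2 sexes overlapped at 10.5 dpc and lay apart at 11.5 dpc, where the female mean was 4.15-fold the male mean. The change was 6.14 ± 0.27 in females, or 77.7-fold and the 2nd largest increase of all genes there, and 3.94 ± 0.27 in males, or 15.4-fold. At 10.5 dpc the male minus female difference was 0.14 ± 0.27, from -0.25 to 0.42 under the alternatives tried. The male change ranged from 3.67 to 4.34 when an array was left out. With a pseudocount of 16 the change was 4.84 in females and 2.8 in males. With the mean over the probe sets of the gene it was 3.11 and 1.84.

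6430710C18Rik, a noncoding RNA next to Sp3, had almost the same outline as Klk1. It read 13.6, 25.3 and 15.6 in females and 23.3, 35.9 and 33.6 in males at 10.5 dpc. At 11.5 dpc it read 1241, 1302 and 1342 in females and 352, 347 and 348 in males. The change was 6.13 ± 0.21 in females, or 71.2-fold and the 3rd largest of all genes, and 3.48 ± 0.21 in males, or 11.3-fold. With a pseudocount of 16 it was 5.28 and 2.97, and with the mean over the probe sets of the gene 3.11 and 1.67. The female mean was 3.71-fold the male mean at 11.5 dpc. At 10.5 dpc the order of the sexes was the other way, with a male minus female difference of 0.76 ± 0.21, although 1 female array lay above the lowest male array. The difference lay between 0.43 and 1.01 under the alternatives tried.

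Stim1, the calcium store sensor gene, was high in both sexes at 11.5 dpc and higher in males at both ages. The readings of its representative probe set were 43.2, 26.9 and 35.9 in females and 134, 139 and 163 in males at 10.5 dpc. A day later they were 708, 733 and 684 in females and 1258, 1425 and 1404 in males. No group overlapped another. The change was 4.31 ± 0.14 in females, or 20.1-fold, and 3.22 ± 0.14 in males, or 9.37-fold. At 10.5 dpc the male minus female difference was 2.03 ± 0.14, a 4.12-fold higher mean, and it lay between 1.48 and 2.19 under the alternatives tried.

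Myocd, the myocardin gene, had the smallest increase of the 7 in males and, like Stim1, read higher in males at 10.5 dpc in every array. It read 23.7, 25.2 and 34.6 in females and 105, 101 and 83.2 in males at 10.5 dpc. The readings at 11.5 dpc were 113, 112 and 104 in females and 212, 210 and 231 in males. The females at 11.5 dpc overlapped the males at 10.5 dpc, and the other groups lay apart. The change was 1.96 ± 0.13 in females, or 3.94-fold, and 1.17 ± 0.13 in males, or 2.26-fold. At 10.5 dpc the male mean was 3.46-fold the female mean, a difference of 1.77 ± 0.13 that lay between 0.92 and 1.93 under the alternatives.

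At 10.5 dpc the male minus female difference thus ranged from -1.23 for Afp to 2.03 for Stim1. For Hcrtr1 it was 0.0 ± 0.1 and for AU015836 -0.24 ± 0.11. The median over the 7 genes was 0.14, against 0.01 over all genes, and it lay between 0 and 0.42 with an array left out. The highest value came without replicate 1 of the males at 10.5 dpc. The 10.5 dpc arrays are also the baseline of the increases that chose the genes, so these differences are not independent of the choice.

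The probe sets of a gene did not all show its change. Of the 17, 8 were at least 2-fold higher at 11.5 dpc in both sexes, 3 in males alone, none in females alone and 6 in neither. The 3 in males alone were those of Hcrtr1 and AU015836, each the only probe set of its gene, and 1416646_at of Afp. That Afp probe set had means of 4.89, 4.95 and 4.89 in females at 10.5 dpc, males at 10.5 dpc and females at 11.5 dpc and of 82.3 ± 2.23 (SD) in males at 11.5 dpc. Another Afp probe set, 1436879_x_at, changed by 2.47 ± 0.14 in females and 6.54 ± 0.14 in males, much like the representative one, and read lower in males at 10.5 dpc as well (-0.7 ± 0.14). The other Afp probe sets were dim, 1436881_x_at with means from 8.2 to 15.2 and 1436880_at with means from 6.57 to 6.99.

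For Klk1, 1448107_x_at changed by 5.53 ± 0.22 in females and 3.43 ± 0.22 in males, close to the representative 1415837_at. The 2 further Klk1 probe sets differed from it: 1455977_x_at stayed between means of 62.7 and 74.3, and 1460050_x_at, with the highest mean over the 12 arrays, had means of 199, 290, 309 and 265 in females at 10.5 dpc, males at 10.5 dpc, females at 11.5 dpc and males at 11.5 dpc. An ending in x_at marks probes that can bind other transcripts. It is carried by these 2 probe sets, by 1448107_x_at, which changed like the representative one, and by 1436879_x_at and 1436881_x_at of Afp and 1436945_x_at of Stim1. The Klk1b genes are close copies of Klk1, so which gene the x_at probe sets of Klk1 read is uncertain. For Stim1, 1436945_x_at changed by 3.12 ± 0.13 in females and 2.24 ± 0.13 in males with a male minus female difference of 0.93 ± 0.13 at 10.5 dpc. It did not carry the sex difference at 11.5 dpc, with 986 ± 80.4 (SD) in females and 1015 ± 51.9 in males, against 708 and 1362 on 1448320_at. The second probe sets of 6430710C18Rik (means of 17.2 to 19.2) and Myocd (5.77 to 7.27) were dim and flat.

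**Figure D3:**
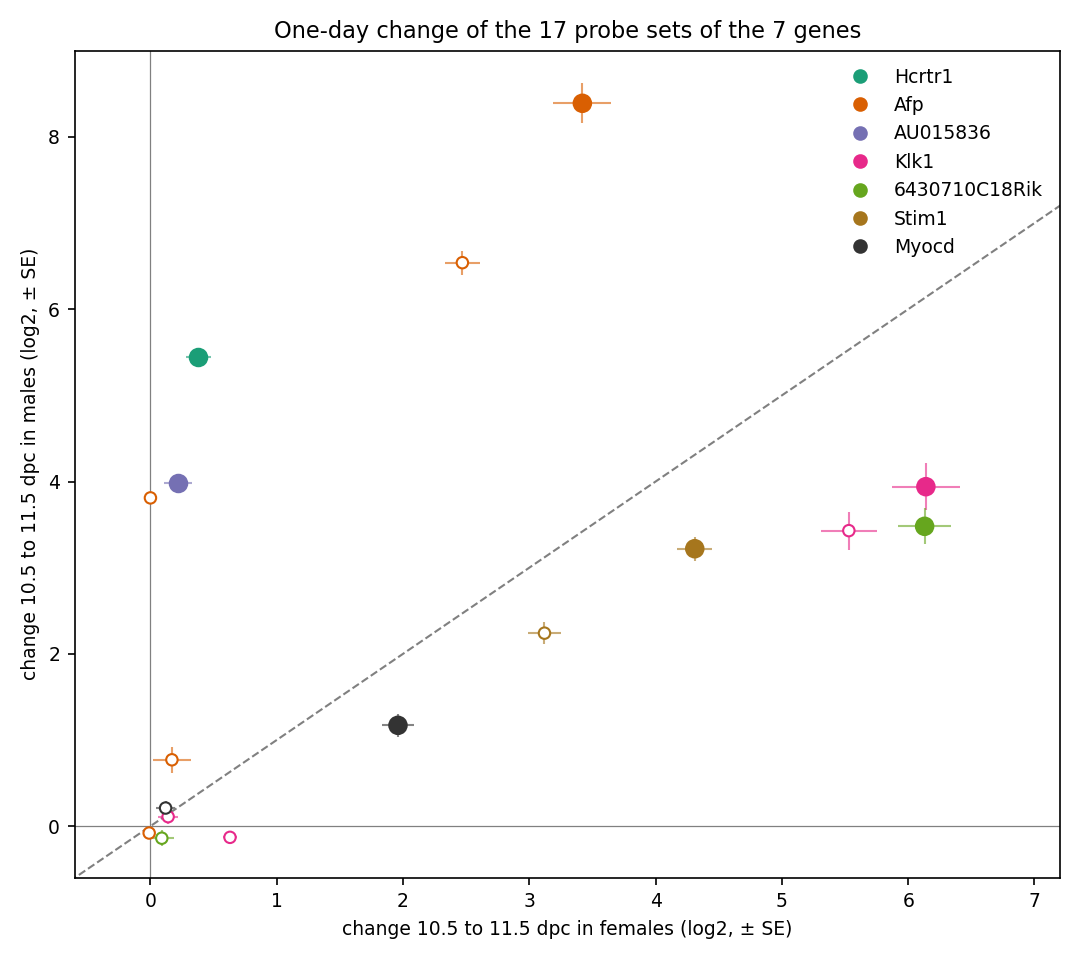
Change from 10.5 to 11.5 dpc in females (x axis) and males (y axis), log2 ± SE, for the 17 probe sets, coloured by gene, with large filled points for the representative probe set and small open points for the others. The dashed line marks equal change. Afp, Hcrtr1 and AU015836 lie above it, Klk1, 6430710C18Rik, Stim1 and Myocd below it, and 6 probe sets changed by under 2-fold in both sexes.

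Genes that work with the 7 were counted in 8 lists of 145 genes, of which 125 were measured. Over the day 41 were higher and 19 lower in females, and 37 higher and 19 lower in males. Of those higher, 15 in females and 15 in males came from the list of smooth muscle and SRF targets. A further 11 and 8 came from store-operated calcium entry, so the pooled counts do not describe every list. Among all genes 22.4% were called higher and 27.0% lower in females, and 23.3% and 29.7% in males. With each array centred on its median the counts were 39 higher and 41 lower in females and 34 and 46 in males, the median over all genes moved to -0.08 and -0.1, and 42.7% and 48.7% of all genes were then called lower. For single lists the number of genes past 2-fold is given as well. The shares beside those counts were 5.84% of all genes higher and 7.61% lower in females, and 5.86% and 5.28% in males.

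The genes of smooth muscle and SRF targets, the list that belongs to Myocd, were mostly higher at 11.5 dpc. Of 20 genes, 15 rose and 2 fell in females, and 15 rose and 1 fell in males, the same counts with arrays centred on their medians. At least 2-fold, 12 rose in females and 12 in males, 11 of them in both, against 5.84% and 5.86% of all genes. The list's median change was 1.32 in females and 1.13 in males. Srf itself rose from 89.1 to 220 in females (1.29 ± 0.092) and from 92.3 to 264 in males (1.51 ± 0.092). Smtn, a smooth muscle cytoskeletal protein, rose by 1.86 ± 0.15 in females and by 3.04 ± 0.15 in males, and the myosin kinase gene Mylk by 1.92 ± 0.079 and 2.69 ± 0.079. Myh11, the smooth muscle myosin heavy chain, rose from 58.5 to 245 in females and from 105 to 377 in males, and was higher in males at 10.5 dpc (0.8 ± 0.19, adjusted p = 0.0062). Cspg4, a proteoglycan known from pericytes, rose by 2.54 ± 0.14 and 2.61 ± 0.14.

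Tagln, the actin-binding transgelin, rose by 0.39 ± 0.048 in females and 1.14 ± 0.048 in males. For the smooth muscle actin Acta2 the representative probe set was dim, with means from 8.55 to 10.7, and did not pass (0.06 ± 0.11 and 0.29 ± 0.11). Its probe set 1416454_s_at, which can bind related actins, read 9705 and 9264 in females and males at 10.5 dpc and 13609 and 14287 at 11.5 dpc, and passed (0.49 ± 0.042 and 0.62 ± 0.042). At 11.5 dpc 13 of the 20 genes were higher and 3 lower in males, where 19.1% of all genes were called higher and 20.9% lower. At 10.5 dpc 8 were higher and 1 lower in males, where 17.5% of all genes were called higher and 22.8% lower. The summed level of the list ranged from 23083 to 24994 over the arrays at 10.5 dpc and from 47956 to 53960 at 11.5 dpc.

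Genes of cardiac muscle, which myocardin also drives, went both ways. Of 16 genes, 3 rose and 6 fell in females, and 4 rose and 6 fell in males. The shares of all genes were 22.4% and 27.0% in females and 23.3% and 29.7% in males. At least 2-fold, none rose and 3 fell in females, and 3 rose and 1 fell in males. Tnnt2, cardiac troponin T, fell by 1.67 ± 0.073 in females and by 0.49 ± 0.073 in males. The myosin gene Myh6 (-1.11 ± 0.036 and -1.36 ± 0.036) and the troponin gene Tnni1 (-1.11 ± 0.056 and -0.58 ± 0.056) fell too. Hand2, a transcription factor of heart and limb, rose by 0.65 ± 0.11 in females and 1.8 ± 0.11 in males.

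Store-operated calcium entry is the process that Stim1 serves, and its channel gene rose as well. Orai1 went from 46.5 to 302 in females (2.68 ± 0.15) and from 39.1 to 175 in males (2.17 ± 0.15), and it was lower in males at 11.5 dpc (-0.78 ± 0.15, adjusted p = 0.0023), where Stim1 read higher in males on its representative probe set. Its second probe set, 1424989_at, changed by 1.44 ± 0.23 and 1.09 ± 0.23. Stim2, the second sensor of the family, rose by 0.61 ± 0.054 and 0.45 ± 0.054. Of the 18 genes measured, 11 rose and 3 fell in females, and 8 rose and 2 fell in males, with 8 higher in both. Among all genes 22.4% rose and 27.0% fell in females, and 23.3% and 29.7% in males. At least 2-fold, 3 rose in females and 2 in males, and Orai1 was the only gene past 2-fold in both. The list's median change was 0.29 in females and 0.12 in males. Nfatc1, a transcription factor that calcineurin activates, rose by 0.64 ± 0.088 and 1.15 ± 0.088. Ppp3ca, a catalytic subunit of calcineurin, fell by 1.54 ± 0.08 in females and by 0.35 ± 0.08 in males on its representative probe set, and 1438478_a_at gave the opposite call in males (0.25 ± 0.051). On 1452056_s_at the changes were close in the 2 sexes (-0.36 ± 0.036 and -0.29 ± 0.036).

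**Figure D4:**
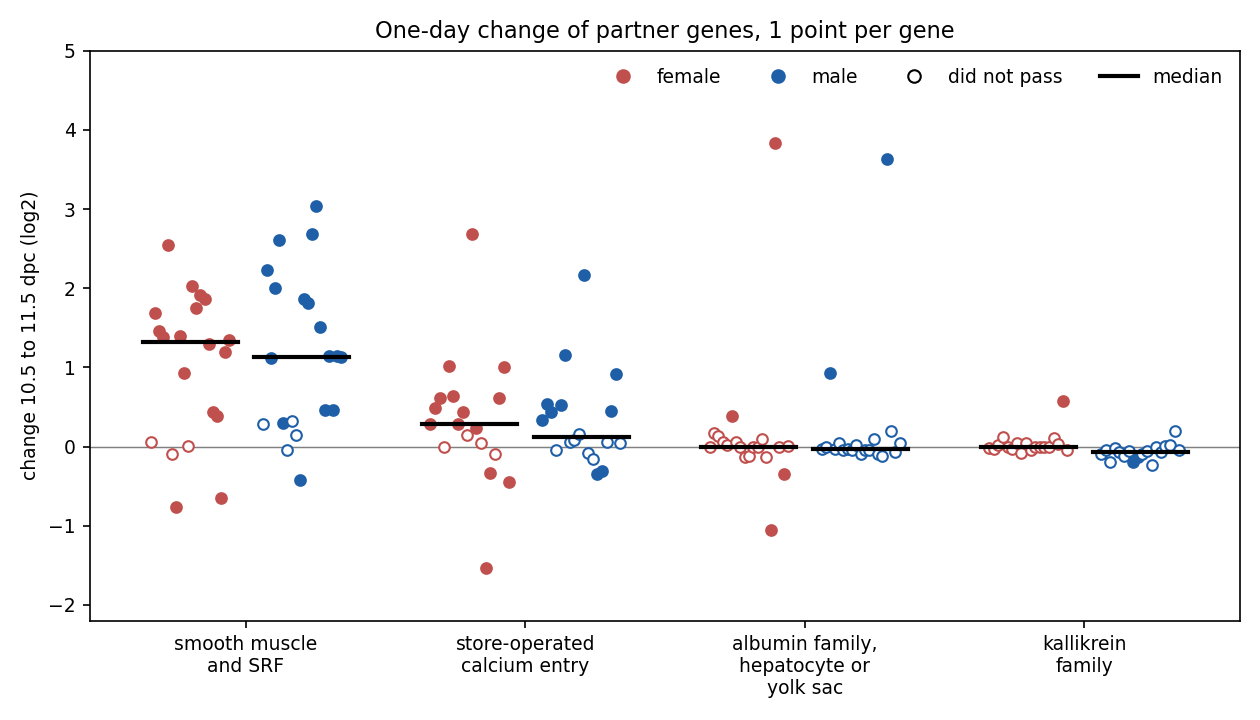
Change from 10.5 to 11.5 dpc (log2) of each measured gene in 4 of the partner lists, females in red and males in blue, with open points for genes that did not pass and a black line at the list's median. The smooth muscle list has medians of 1.32 and 1.13, while the albumin and kallikrein lists lie near 0 except for single genes.

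The list that belongs to Hcrtr1 is orexin signalling. Hcrt, which encodes the orexin peptides, read from 11.1 to 11.3 in the 4 groups and Hcrtr2, the second receptor, from 47.7 to 52.9, and neither passed in any comparison. Of 12 measured genes 3 rose and 2 fell in females, and 3 rose and 5 fell in males. The share called higher, 25.0% in each sex, was near the 22.4% and 23.3% of all genes. Called lower were 16.7% in females and 41.7% in males, against 27.0% and 29.7%. At least 2-fold, none rose and 1 fell in females, and 1 rose and 2 fell in males. Ptk2b, a calcium-activated tyrosine kinase, rose by 0.59 ± 0.11 in females and 1.49 ± 0.11 in males and was higher in males at 11.5 dpc (0.89 ± 0.11, adjusted p = 0.00014). Plcb1, a phospholipase that Gq proteins activate, fell on its representative probe set (-1.55 ± 0.21 and -1.11 ± 0.21), while 4 others lay between -0.27 and 0.15.

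Most genes that fetal liver and yolk sac express together with Afp were dim, although Serpina1b rose in both sexes and Alb in males. Of 19 measured genes of the albumin family, hepatocyte and yolk sac list, 11 lay below an intensity of 10 and 15 below 50 in all 4 groups. Over the day 2 rose and 2 fell in females, and 2 rose and none fell in males, with 1 gene at least 2-fold higher in each sex. The summed level of the list ranged from 421 to 458 in females and from 352 to 375 in males at 10.5 dpc, and from 457 to 476 and 442 to 466 at 11.5 dpc. Alb, the albumin gene beside Afp, had means of 24.5, 26.1 and 26.7 in females at 10.5 dpc, males at 10.5 dpc and females at 11.5 dpc and of 50.9 in males at 11.5 dpc, and rose in males (0.93 ± 0.11, adjusted p = 4.4e-05) but did not pass in females (0.13 ± 0.11, adjusted p = 0.46). Afm, on the other side of Afp, lay between 5.08 and 5.2 and did not pass. The gene past 2-fold was Serpina1b, which rose from 6.1 to 99.5 in females and from 5.27 to 75.1 in males (3.84 ± 0.17 and 3.63 ± 0.17), a protease inhibitor with near-identical copies, read by an x_at probe set, so the copy is uncertain. Rbp4, the retinol carrier, fell by 1.05 ± 0.14 in females and did not pass in males (-0.12 ± 0.14).

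Among 11 measured regulators of Afp, 4 rose and 3 fell in females, and 2 rose and 1 fell in males. Over all genes the shares were 22.4% and 27.0% in females and 23.3% and 29.7% in males. Zhx2, a repressor of Afp in adult liver, was dim, with means from 11.1 to 13.1, and did not pass over the day. Nr5a2, the liver relative of Nr5a1, rose on its representative probe set from 24.8 to 35.1 in females (0.49 ± 0.13) and from 19.4 to 40.1 in males (1.0 ± 0.13). Its probe set 1449706_s_at, with means from 23.2 to 24.4, did not pass (0.07 ± 0.072 and -0.03 ± 0.072). The dim 1449707_at fell in males (-0.12 ± 0.035). Cebpb rose in females by 0.74 ± 0.036 and did not pass in males (-0.04 ± 0.036). Foxm1, a factor of dividing cells, fell in both sexes on its representative probe set (-0.24 ± 0.086 and -0.3 ± 0.086). Its probe set 1417748_x_at passed in males alone (-0.17 ± 0.082 and -0.43 ± 0.082) and 1448834_at in neither sex (-0.16 ± 0.059 and -0.06 ± 0.059). For Zfhx3, a repressor that binds the Afp promoter, the probe sets disagreed in females, with 1.05 ± 0.079 on the representative one and -1.71 ± 0.11 on 1460006_at.

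The measured kallikrein relatives of Klk1 did not share its change. Of 25 listed relatives 18 were measured, and 11 of these lay below an intensity of 10 and 15 below 50 in all 4 groups. Of 18 measured family genes 1 rose in females and 2 fell in males, and none changed by 2-fold in either direction. With arrays centred on their medians 1 rose and 7 fell in females and 12 fell in males, all by under 2-fold, where 42.7% and 48.7% of all genes were called lower. The 2 that fell in males, Klk1b21 (-0.19 ± 0.058) and Klk1b24 (-0.13 ± 0.046), became 0 to 5 genes when an array was left out. The Klk1b genes, the closest copies of Klk1, had means from 4.11 for Klk1b5 to 57.2 for Klk1b21. The gene that rose was Klk8, known as neuropsin, from 139 to 208 in females (0.57 ± 0.15). Of 11 kinin system genes 2 rose and 1 fell in females, and 3 rose and 2 fell in males. For all genes 22.4% rose and 27.0% fell in females, and 23.3% and 29.7% in males. The kinin receptors Bdkrb1 (3.96 to 4.18) and Bdkrb2 (6.67 to 7.09) were near the lowest intensities in all groups and did not pass. Serping1, the inhibitor of plasma kallikrein and complement C1, rose by 1.19 ± 0.052 in females and 0.15 ± 0.052 in males. The kinin-degrading enzymes moved both ways: Cpm fell (-1.16 ± 0.12 and -0.77 ± 0.12) and Mme rose by 0.42 ± 0.056 and 0.5 ± 0.056.

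The genomic neighbours of the 7 genes, were taken as 3 measured genes on each side. Of these 42 genes 12 rose and 9 fell in females, and 14 rose and 10 fell in males, against 22.4% and 27.0% of all genes in females and 23.3% and 29.7% in males. With arrays centred on their medians these counts were 10 and 14 in females and 13 and 19 in males. At least 2-fold, 2 rose and 4 fell in females and 3 rose and 3 fell in males, where 5.84% and 5.86% of all genes rose and 7.61% and 5.28% fell by as much. Tinagl1, a matrix protein gene next to Hcrtr1, was higher in males as Hcrtr1 was, with 108 and 95.7 in females and males at 10.5 dpc and 151 and 372 at 11.5 dpc, and rose by 0.48 ± 0.081 in females and 1.95 ± 0.081 in males. Farther along, the fatty acid binding protein gene Fabp3 rose by 0.92 ± 0.1 and 1.08 ± 0.1, and Adgrb2 on the other side rose by 1.02 ± 0.18 and 0.65 ± 0.18. Beside Stim1 the small GTPase gene Rhog rose by 0.93 ± 0.057 and 1.27 ± 0.057, while the ribonucleotide reductase gene Rrm1 fell (-1.4 ± 0.049 and -0.4 ± 0.049). Near AU015836 the DNA polymerase gene Pola1 (-2.12 ± 0.12 and -1.71 ± 0.12) and the X-linked Eif2s3x (-1.14 ± 0.041 and -1.18 ± 0.041) fell. Cdca7, near 6430710C18Rik, fell as well (-1.51 ± 0.061 and -1.38 ± 0.061). Clec11a, near Klk1, rose by 1.09 ± 0.16 in females (from 15.2 to 33.3) and did not pass in males (0.31 ± 0.16).

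The genes whose levels over the 4 groups were most like those of each gene were found among 9777 genes with a group mean of at least 100. Likeness was the root mean square difference of the 4 group means on the log2 scale, each gene centred on its own mean, and is given without a test. For Hcrtr1 these were Acap1 (0.16), the growth factor gene Gdnf (0.39) and the cystatin gene Cst9 (0.43). Acap1 had means of 6.26, 7.25, 11.9 and 322 in females at 10.5 dpc, males at 10.5 dpc, females at 11.5 dpc and males at 11.5 dpc. For AU015836 they were Mmd2 (0.15), the growth factor gene Fgf9 (0.19) and the R-spondin receptor gene Lgr5 (0.26). For Afp the nearest were farther off, the collagen gene Col9a3 (0.9), Ogn (0.97) and Adamts16 (1.01). Klk1 and 6430710C18Rik were each other's nearest gene of all 9777, at 0.25, and the transcription factor gene Runx1 was second for both (0.66 and 0.63). 2210407C18Rik (0.77) came next for Klk1 and Ttc38 (0.73) for 6430710C18Rik. For Stim1 they were 4930523C07Rik (0.27), the corepressor gene Tle2 (0.35) and the matrix protein gene Thbs2 (0.47). For Myocd they were the potassium channel gene Kcnma1 (0.1), which serves smooth muscle tone, the cadherin gene Dchs1 (0.17) and Oplah (0.19). With a pseudocount of 16 in place of 1, 12 of the 21 named patterns were the same.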

How the data were processed

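RNA of sorted cells, amplified in a double round and labelled with biotin per the labels, was measured on 12 Affymetrix mouse arrays, 1 per sample. The deposited intensity values, 1 per probe set and array on a linear scale, were made by the authors with RMA, which subtracts background, equalises the arrays' quantiles and summarises each probe set, per the submitters' processing notes; the version and the way to the linear scale are not given in the sources used here. Quantile normalization hides a shift shared by most genes, RMA compresses dim probe sets, and no detection calls were used. The 64 control probe sets were left out. With limma 3.58.1 in R 4.3.3, log2(intensity + 1) of 45037 probe sets was modelled by 4 group means, sharing 1 spread over the 4 groups (8 residual and 1.89 prior degrees of freedom). Adjusted p-values are limma's, by the Benjamini-Hochberg method over all probe sets of a contrast, threshold 0.05; the pseudocount of 1 understates changes of dim genes.

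Gene names came from the platform's annotation table (34945 with 1 symbol, 932 with several and 9160 with none), and 34741 symbols were updated through RefSeq GRCm38.p6. A gene was represented by its brightest probe set among those naming it alone, with those ending in x_at or s_at used only where there was no other. The members and lists were chosen with earlier results of these data known. Named partner genes were the 2 largest changes past the threshold in each sex for each list plus fixed anchors such as Hcrt, Orai1, Alb and Srf; named neighbours were those past the threshold and 2-fold. Neighbours and promoters were taken from RefSeq tables of GRCm38.p6. The fit was tested on simulated data. A test of the members' sex difference at 10.5 dpc had been planned and is not reported, since those arrays entered the choice of the members. Alternatives were a pseudocount of 16, centring arrays on their medians, dropping probe sets under 50 in every group, limma-trend with robust moderation, the replicate number as a block, gene means over probe sets, and leaving out each array.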

Additional observations from a re-analysis of the deposited data

Results flagged for a closer look

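The change over the day was compared between the sexes by limma's interaction term, the male change minus the female change on the log2 scale. This was done for the named partner genes and the neighbours past 2-fold. Those with an adjusted p past the threshold are given here. Apart from the fixed anchors, these genes were named for a large change in at least 1 sex on these same arrays. Their p-values are therefore not independent of that choice. The share of all genes past the threshold for this term is not given here. Among smooth muscle genes the male increase was larger for Smtn (1.19 ± 0.21, adjusted p = 0.0016), Mylk (0.77 ± 0.11, adjusted p = 0.00049) and Tagln (0.76 ± 0.068, adjusted p = 2e-05). Among cardiac muscle genes the difference was 1.15 ± 0.15 for Hand2 (adjusted p = 0.00023), which rose more in males. It was 1.17 ± 0.1 for Tnnt2 (adjusted p = 1.8e-05) and 0.53 ± 0.079 for Tnni1 (adjusted p = 0.00057), both of which fell less in males, and -0.25 ± 0.05 for Myh6 (adjusted p = 0.0039), which fell more in males.

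In the calcium and orexin lists Ptk2b (0.9 ± 0.16, adjusted p = 0.0019) and Nfatc1 (0.51 ± 0.12, adjusted p = 0.011) rose more in males, and Ppp3ca (1.19 ± 0.11, adjusted p = 3e-05) fell less in males. For Ppp3ca these are values of the representative probe set. On 1438478_a_at Ppp3ca fell in females (-0.63 ± 0.051) and rose in males (0.25 ± 0.051). On 1452056_s_at it changed by -0.36 ± 0.036 in females and -0.29 ± 0.036 in males. Beside Afp, Alb differed by 0.8 ± 0.15 (adjusted p = 0.0029) and Rbp4 by 0.93 ± 0.2 (adjusted p = 0.0054), while the Afp regulators Cebpb (-0.78 ± 0.051, adjusted p = 2.7e-06) and Zfhx3 (-0.84 ± 0.11, adjusted p = 0.00028) had the larger change in females. For Zfhx3 this holds for the representative probe set, since its probe sets disagreed. Serping1 of the kinin list also had the larger change in females (-1.04 ± 0.074, adjusted p = 4.7e-06).

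Among the genomic neighbours the difference was 1.48 ± 0.12 for Tinagl1 next to Hcrtr1 (adjusted p = 8.1e-06), 1.0 ± 0.069 for Rrm1 (adjusted p = 3.7e-06) and 0.35 ± 0.08 for Rhog (adjusted p = 0.0079), the genes on either side of Stim1, and -0.79 ± 0.23 for Clec11a near Klk1 (adjusted p = 0.026).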

How the results depend on the processing

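Under the alternatives tried, no change over the day and no sex difference at 11.5 dpc of the 7 genes changed sign, while at 10.5 dpc the differences of Klk1 (-0.25 to 0.42) and Hcrtr1 (-0.02 to 0.02) did. With a pseudocount of 16 the median change over the day was 2.67 in females and 3.1 in males, and 12 of the 21 nearest patterns were shared. With the mean over all probe sets of a gene these medians were 1.21 and 2.73, and the median sex difference at 11.5 dpc was 0.57 in place of 0.98. Leaving out 1 array gave medians from 3.24 to 3.75 in females and from 3.67 to 3.99 in males, and from 0 to 0.42 for the sex difference at 10.5 dpc, in place of 0.14. With arrays centred on their medians 41 partner genes fell in females and 46 in males, in place of 19 and 19, and 14 and 19 neighbours fell in place of 9 and 10. The cause of these shifts was not tested. Deviations of samples with the same replicate number correlated from -0.141 to 0.0818 over 18 pairs, so the numbers were not taken to pair the samples. With the replicate block 40 partner genes rose and 18 fell in females. In males at 10.5 dpc Hcrtr1 lay near percentile 6.2 and Afp near percentile 19.1 of all probe sets, where intensities are close to background, so a fold change from that baseline is imprecise. Small list counts, such as the 2 kallikrein genes that fell in males (0 to 5 with an array left out), rest on small changes.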
